A study of Mus musculus with 4 samples.

Results

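The 38 genes described here encode the working parts of the lysosome: acid hydrolases, precursors of hydrolase cofactors, proteins of the limiting membrane, the proton pump and a pair of transcription factors that act on such genes. The rule that defines them uses gene symbols and no measured values, and all 38 were found among the 24527 symbols of the count table. By role, 7 are cathepsins, 9 glycosidases, 6 hydrolases of lipids, sulfates or peptides, 2 cofactor precursors, 5 membrane proteins, 7 subunits of the vacuolar ATPase (V-ATPase) and 2 transcription factors.

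RNA of the mouse melanoma line B16F10 was sequenced in 4 libraries, 1 per condition, all labelled WT. The 2D monoculture (monoculture for short) was grown alone, the 2D co-culture (co-culture) together with NIH/3T3 mouse fibroblasts, and the spheroid as a 3D culture with the same fibroblasts. For these cultures the study's methods describe a B16F10 line carrying green fluorescent protein (GFP), sorted for green fluorescence with dead cells left out. The tumor grew under the skin of the flanks of year-old female C57BL/6 mice. The study's methods speak of cells sorted from tumors, whereas the label of the tumor library names snap-frozen tumor. The cell line is a single established line, and no label says how many animals or cultures went into a library. The study's methods give RNA isolation as n = 3, and whether isolations were pooled into the single libraries is not stated in the sources used here. With 1 library per condition no difference has a replicate check, no p-value is given, and every interval below is an exact 95% binomial interval that covers counting error only.

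The lysosome is the acidic compartment in which proteins, glycans, lipids and sulfated sugars brought in by endocytosis or autophagy are broken down. The V-ATPase pumps protons into it, with a cytosolic V1 sector that splits ATP and a membrane-bound V0 sector that carries the protons. Tfeb and Tfe3, of the MiT/TFE family that also holds the melanocyte factor Mitf, bind an E-box-like element found before many lysosomal genes, and pigment cells use much of the same machinery to build melanosomes.

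Levels are given as CPM, counts as a share of the library, brought to a common total and scaled by TMM, a method that sets libraries on a common scale from the bulk of their genes. The totals ran from 118896900 to 150028663 reads, so that 3 reads, the upper limit a count of 0 allows, were worth between 0.0185 and 0.0262 CPM. The 8 melanocyte markers had reads in all 4 libraries, with summed levels of 16911 CPM in monoculture, 15306 in co-culture, 11420 in the spheroid and 20122 in the tumor. Markers of other cells were far more abundant in the tumor. There, 12 of 12 macrophage and other myeloid markers were over 2-fold higher than in the monoculture, with a summed 2339 CPM against 11.2 to 30.02 CPM in the cultures, most of which was Cd68 in the monoculture and the spheroid. Skeletal muscle markers summed to 4599 CPM and endothelial markers to 244 CPM in the tumor, against at most 12.4 and 4.55 CPM in any culture. The fibroblast markers summed to 2728 CPM in the tumor and 679 CPM in the co-culture, against 17.6 CPM in the monoculture and 36.5 CPM in the spheroid. In such bulk libraries, fewer cells of a type and less RNA per cell cannot be told apart.

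The element bound by the MiT/TFE factors was looked for in the promoters of the lysosomal genes, since Tfeb and Tfe3 are known to act through it. The letters TCACGTG, or CACGTGA on the other strand, were searched in windows from 250 bases before to 50 bases after the start site (RefSeq, GRCm38.p6). Of the 33 genes with an entry, 11 (33.3%) held these letters: Ctsa, Ctsd, Gaa, Gla, Glb1, Naglu, Arsa, Lamp1, Mcoln1, Atp6v0d1 and Atp6v1a. The same letters were in 4.29% of 27025 gene promoters and in 7.01% of the 9863 promoters of genes averaging at least 1 CPM. The palindrome TCACGTGA, which holds both strings overlapping, was in 6 of the 33 (18.2%) against 1.12% of all promoters and 2.12% of those of expressed genes. Ctsb, Ctsh, Asah1, Atp6v0d2 and Atp6v1h had no entry. A match is a string of letters, not a bound site. The element is already known from many lysosomal genes, so a share above that of other promoters is no independent result.

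The stretches that follow come from genes whose levels are compared in the following paragraphs: 3 glycosidase genes higher in the spheroid (Naglu, Gaa, Glb1), the calcium channel gene Mcoln1, the membrane protein gene Lamp1, which varied little, and the proton pump gene Atp6v1a, which was lower in the spheroid. Capitals mark the element, and each is written 5′ to 3′ on the strand of its gene. They lie upstream of the start site used in the search, at chr11:101069990-101070056 (Naglu, plus strand), chr11:119267792-119267858 (Gaa, plus), chr9:114400999-114401065 (Glb1, plus), chr8:3500417-3500510 (Mcoln1, plus), chr8:13159069-13159160 (Lamp1, plus) and chr16:44139354-44139421 (Atp6v1a, minus). For Atp6v1a, that start site and the stretch lie within the gene coordinates given below (chr16:44085402-44139702), whose end is a different start site.
Naglu: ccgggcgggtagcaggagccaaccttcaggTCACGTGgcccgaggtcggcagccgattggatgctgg
Gaa: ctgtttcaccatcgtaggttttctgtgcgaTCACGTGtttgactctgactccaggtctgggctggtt
Glb1: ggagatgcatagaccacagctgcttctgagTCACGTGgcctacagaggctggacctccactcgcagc
Mcoln1: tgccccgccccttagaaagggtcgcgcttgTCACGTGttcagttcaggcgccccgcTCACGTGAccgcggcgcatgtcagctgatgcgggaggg
Lamp1: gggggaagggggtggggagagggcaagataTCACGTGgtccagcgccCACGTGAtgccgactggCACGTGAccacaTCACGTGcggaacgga
Atp6v1a: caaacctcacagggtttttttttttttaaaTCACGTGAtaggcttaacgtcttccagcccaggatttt

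Lamp1 carried 4 copies in this stretch and Mcoln1 2. The single copies of Naglu, Glb1 and Gaa began at -74, -49 and -141 from the start site, and the palindrome of Atp6v1a began at -132. Genes with and without the letters overlapped widely in each comparison. Gla, a glycosidase gene that holds the letters but is not shown above, was lower in the spheroid than in monoculture. Neu1, a glycosidase gene without them, was higher. The median spheroid-to-monoculture log2 ratio was 0.27 over the 11 genes with the letters, which ran from -2.21 for Atp6v1a to 1.94 for Naglu, and 0.13 over the 22 without. For tumor against monoculture the medians were -0.84 and -0.46, and for spheroid against tumor 1.51 and 0.58.

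Most of the lysosomal genes were abundant in all 4 libraries. In all, 36 of the 38 had a mean of at least 1 CPM, and 35 had over 1000 reads in every library, which kept the width of the log2 ratio's interval at 0.15 or less. They took 1.22% of the reads in the monoculture, 1.02% in the co-culture, 1.24% in the spheroid and 1.08% in the tumor. The median gene was at 188 CPM in monoculture, 155 in co-culture, 156 in the spheroid and 105 in the tumor. Levels were of a like order for many genes, as 14 of the 38 stayed within 2-fold over the 4 libraries and 26 over the 3 cultures. The spheroid and the tumor held most of the extremes: 16 genes were highest and 13 lowest in the spheroid, and 11 were highest and 22 lowest in the tumor.

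The 5 genes of highest mean CPM were Ctsd, Psap, Cd63, Ctsb and Ctsz. Per kilobase of the longest coding transcript, the level in the monoculture was 1284 CPM for Ctsd, an aspartic protease, 807 CPM for Cd63, a tetraspanin of late endosomes and melanosomes, and 499 CPM for Psap, the precursor of the saposins that present lipids to hydrolases. On the same scale, Ctsz, a carboxypeptidase, stood at 335 CPM and Ctsb, a cysteine protease, at 289 CPM. Without division by length, Psap was at 1325 CPM in monoculture, 1231 in co-culture, 1422 in the spheroid and 904 in the tumor. Ctsz was at 482, 519, 559 and 425 CPM in that order of libraries, and Cd63 at 895, 1038, 1504 and 1005 CPM. Cd63 was highest in the spheroid and Psap lowest in the tumor.

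**Figure D1:**
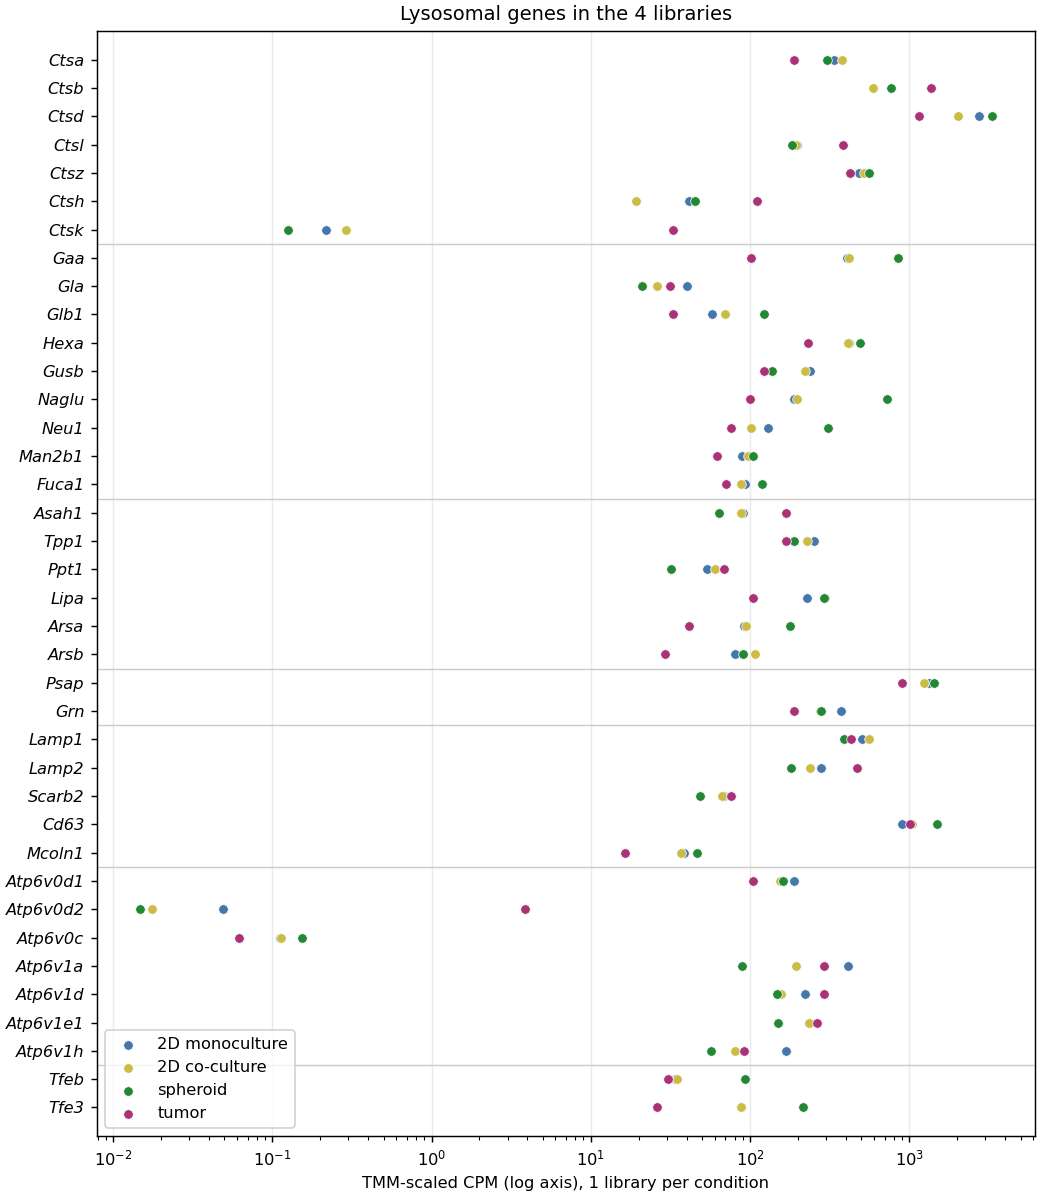
Levels of the 38 lysosomal genes in TMM-scaled CPM (horizontal log axis), with 1 point per library coloured by condition and horizontal lines between roles, from cathepsins at the top to the transcription factors at the bottom. Most points lie between 16.4 CPM (Mcoln1 in the tumor) and 3309 CPM (Ctsd in the spheroid), and Ctsk, Atp6v0d2 and Atp6v0c lie far to the left in the cultures.

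The spheroid was first compared with the monoculture, which asks how B16F10 cells in a 3D culture with fibroblasts differed from the same cells grown flat and alone. In the spheroid, 4 of 9 glycosidase genes and both transcription factor genes were over 2-fold higher, and the A and H subunits of the proton pump were over 2-fold lower. Over 2-fold higher were 6 of 38 genes, Naglu, Tfeb, Tfe3, Neu1, Glb1 and Gaa, against 16.4% of all genes averaging at least 1 CPM. Over 2-fold lower were 3 genes, Atp6v1a, Atp6v1h and Atp6v0d2, or 2 of the 36 averaging at least 1 CPM, against 21.6% of all genes. Both counts are near or under the background share. The median log2 ratio of the 38 genes was -0.01 and that of all genes 0.10. Of the 38, 19 were above and 19 below the level in the monoculture, beside 6830 and 5869 of 12699 genes.

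The summed level of the 9 glycosidases in the spheroid was 2885 CPM, against 1662 CPM in the monoculture, 1629 CPM in the co-culture and 828 CPM in the tumor. Naglu, the α-N-acetylglucosaminidase that trims heparan sulfate (chr11:101070090-101077672, gene coordinates being those of RefSeq on GRCm38), was at 189 CPM in monoculture, 197 in co-culture, 727 in the spheroid and 99.4 in the tumor. Its spheroid-to-monoculture log2 ratio was 1.94 (interval 1.92 to 1.96), or 3.84-fold, and only the spheroid library stood apart among the cultures.

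Neu1, the sialidase that removes terminal sialic acids, was at 129 CPM in monoculture, 101 in co-culture, 307 in the spheroid and 76.5 in the tumor. The β-galactosidase gene Glb1 was at 58.0, 70.0, 122 and 32.8 CPM, and Gaa, the acid α-glucosidase that degrades glycogen, at 407, 421, 854 and 101 CPM in the same order. For all of these genes the spheroid lay above and the tumor below the 2D cultures. Their spheroid-to-monoculture log2 ratios were 1.25 for Neu1, 1.08 for Glb1 and 1.07 for Gaa.

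The 2 glycosidases that were not higher in the spheroid, Gla and Gusb, are named after their values were seen. Gla, the α-galactosidase that acts on globotriaosylceramide, was at 40.0 CPM in monoculture, 26.0 in co-culture, 20.9 in the spheroid and 31.3 in the tumor, a spheroid-to-monoculture log2 ratio of -0.93. Gusb, the β-glucuronidase, gave -0.79 on the same scale. Hexa, a subunit of β-hexosaminidase, had 419 CPM in monoculture, 410 in co-culture, 493 in the spheroid and 232 in the tumor. Hexa, Man2b1 and Fuca1 lay between 0.22 and 0.36 in spheroid-to-monoculture log2 ratio.

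The genes of both transcription factors were highest in the spheroid, as the glycosidase genes Naglu, Neu1, Glb1 and Gaa were. Gla was lowest there. Tfeb (chr17:47737037-47792416) was at 33.9 CPM in monoculture, 34.9 in co-culture, 93.3 in the spheroid and 30.5 in the tumor. Tfe3 (chrX:7762530-7775202) was at 88.4, 87.3, 214 and 26.0 CPM. The spheroid-to-monoculture log2 ratios were 1.46 (1.41 to 1.51) for Tfeb and 1.27 (1.24 to 1.31) for Tfe3, and those of co-culture to monoculture, 0.04 and -0.02, had intervals that held 0. Tfe3 was lowest in the tumor, while the tumor-to-monoculture log2 ratio of Tfeb, -0.16, was smaller than the 0.24 by which scaling to total counts moved the median of all genes in that comparison.

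Mitf and Tfec, the remaining MiT/TFE genes, were lower in the spheroid than in monoculture. Mitf, the factor that sets melanocyte identity, was at 416 CPM in monoculture, 223 in co-culture, 70.3 in the spheroid and 708 in the tumor. Its log2 ratio was -2.56 for spheroid to monoculture and 0.77 for tumor to monoculture. Tfec, which is best known from macrophages, had 26 reads in the monoculture, 10 in the co-culture, 4 in the spheroid and 922 in the tumor. The spheroid was thus the library with the highest Tfeb and Tfe3 and the lowest Mitf, while for Tfec the spheroid and the co-culture were not told apart (log2 ratio -1.57, interval -3.70 to 0.22).

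Of the 7 V-ATPase genes described here, 6 were lower in the spheroid than in monoculture, beside 5869 of 12699 genes. Atp6v0d2, among the 6, rests on 2 reads against 7. Over these 7 genes the summed level in the spheroid was 606 CPM. It was 1219 CPM in the monoculture, 819 CPM in the co-culture and 1049 CPM in the tumor. Atp6v1a, the ATP-splitting A subunit of the V1 sector (chr16:44085402-44139702), was at 410 CPM in monoculture, 194 in co-culture, 88.7 in the spheroid and 292 in the tumor. Its spheroid-to-monoculture log2 ratio was -2.21 (-2.23 to -2.18), a level 4.62 times lower. Atp6v1h, the regulatory H subunit that couples V1 to V0, was at 168, 80.4, 57.0 and 91.6 CPM, with a spheroid-to-monoculture log2 ratio of -1.56 (-1.60 to -1.52). In both genes the co-culture lay between the monoculture and the spheroid.

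The remaining V1 genes varied less. Atp6v1d, a subunit of the central rotor, was at 221 CPM in monoculture, 157 in co-culture, 147 in the spheroid and 293 in the tumor. Atp6v1e1, of the peripheral stalk, was at 233, 233, 150 and 263 CPM, and Atp6v0d1, the widely used d subunit of V0, at 188, 154, 162 and 105 CPM. None of the 3 was over 2-fold apart between the spheroid and the monoculture. Atp6v0c, the proton-carrying ring subunit, had only 16, 13, 21 and 10 reads, and 24.5% of its 100-base words also occur in Atp6v0c-ps2, so its level is uncertain and its ratios of spheroid and of co-culture to monoculture were not resolved from 1.

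Atp6v0d2, the d subunit known from osteoclasts and macrophages, had 7 reads in the monoculture, 2 in the co-culture and 2 in the spheroid against 630 in the tumor. Its lower level in the spheroid rests on these reads, with an interval of the log2 ratio from -5.04 to 0.65 around -1.74. Over all 19 V-ATPase subunits and accessory proteins with a mean of at least 1 CPM, 1 was over 2-fold higher in the spheroid than in the monoculture and 6 were lower, beside 16.4% and 21.6% of all genes, with a median log2 ratio of -0.21 beside 0.10. Besides Atp6v1a and Atp6v1h, the lower genes were Atp6v1c1 (-1.70), Atp6v0a2 (-1.67), Atp6v1b2 (-1.11), which pairs with the A subunit, and Atp6v0a4 (-1.05), and the higher gene was Atp6v1g1 (1.17). These 5 genes were chosen after their values were seen. Of the 19, 14 lay outside the 7 genes summed above, with 7 higher and 7 lower in the spheroid than in monoculture. Of these 14, 1 was over 2-fold higher and 4 over 2-fold lower. Their median log2 ratio was 0.12, beside 0.10 for all genes. The lower sum in the spheroid thus holds for the 7 genes summed and was not shown for the pump as a whole.

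**Figure D2:**
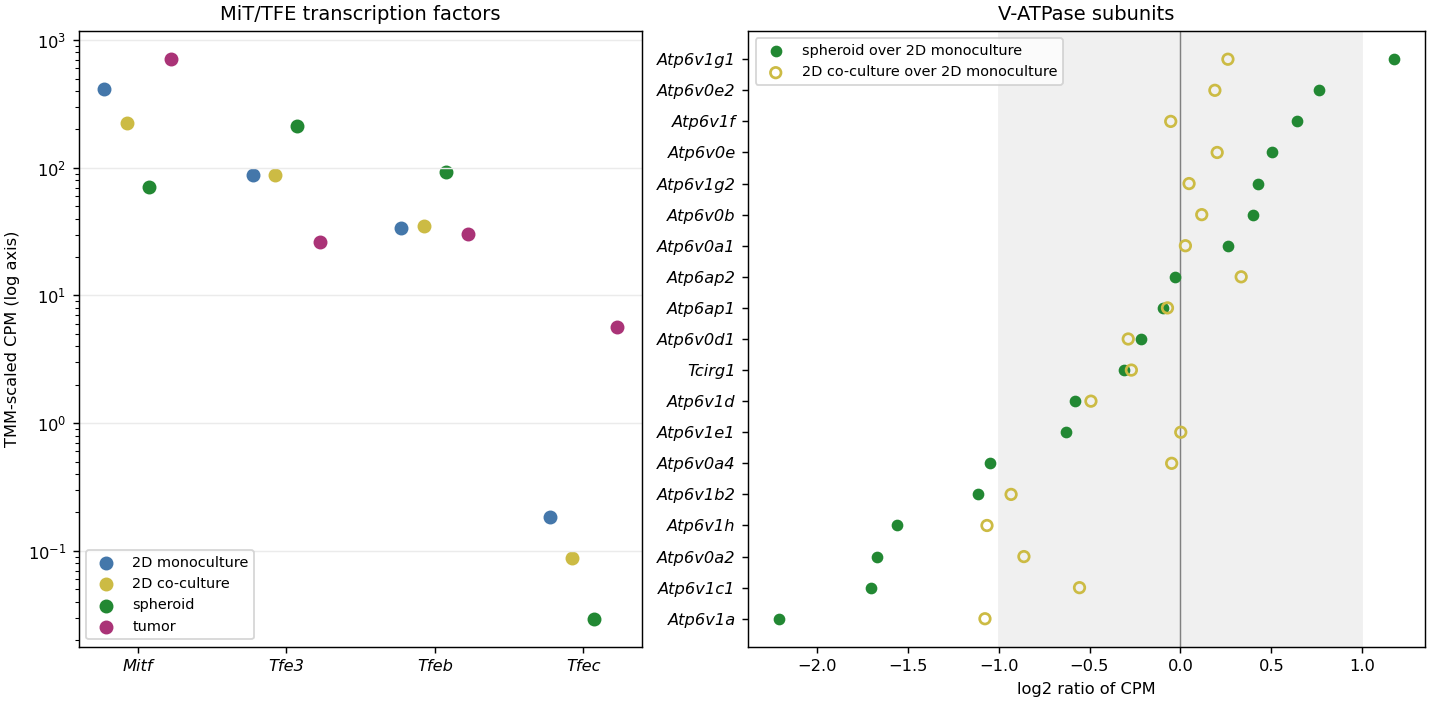
Left, levels of the 4 MiT/TFE genes in TMM-scaled CPM (log axis), 1 point per library: Tfe3 and Tfeb are highest in the spheroid at 214 and 93.3 CPM, where Mitf is lowest at 70.3 CPM. Right, log2 ratios to the monoculture of the 19 V-ATPase subunits and accessory proteins with a mean of at least 1 CPM, filled for the spheroid and open for the co-culture, with the range within 2-fold shaded, from -2.21 (Atp6v1a) to 1.17 (Atp6v1g1) in the spheroid.

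The other groups stayed within 2-fold between spheroid and monoculture. For the 7 cathepsins the log2 ratios ran from -0.83 for Ctsb to 0.28 for Ctsd, and their summed level was 5169 CPM in the spheroid against 5161 CPM in monoculture. Arsa, the arylsulfatase that acts on sulfatide, came close to 2-fold at 0.97, with 91.2 CPM in monoculture, 94.8 in co-culture, 179 in the spheroid and 41.6 in the tumor. The membrane proteins ran from -0.63 for Lamp2 to 0.75 for Cd63.

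The GC content of the transcripts moved with these differences. Over 12246 genes the spheroid-to-monoculture log2 ratio had a Spearman correlation of 0.466 with GC content, and over 36 of the lysosomal genes of 0.737. With transcript length the correlations were -0.393 over all genes and -0.131 over the lysosomal genes, and for co-culture against monoculture -0.333 and -0.0934. These correlations run across genes of the same libraries, so the points are not independent. The 6 genes over 2-fold higher in the spheroid had GC contents of 53.3% to 63.2% and the 3 lower genes 41.6% to 44.6%, around a median of 50.2% for all genes. After the median ratio of genes of like GC content and length was removed, Naglu (1.15) remained over 2-fold higher and Atp6v1a (-1.29) and Atp6v1h (-1.39) over 2-fold lower. Tfeb (0.66), Tfe3 (0.56), Neu1 (0.49), Glb1 (0.71) and Gaa (0.30) kept their direction under that correction but not a 2-fold difference, and the corrected ratio of Mitf was -1.64. The median over the 9 glycosidases went from 0.36 to -0.01 under the correction, and that over the V-ATPase genes from -0.63 to -0.86 for the 5 with a corrected value. Lipa (1.13) then passed 2-fold higher, and Grn (-1.16), Gusb (-1.05) and Ctsk (-1.03) passed 2-fold lower. The value of Ctsk rests on 17 reads in the spheroid against 31 in the monoculture.

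**Figure D3:**
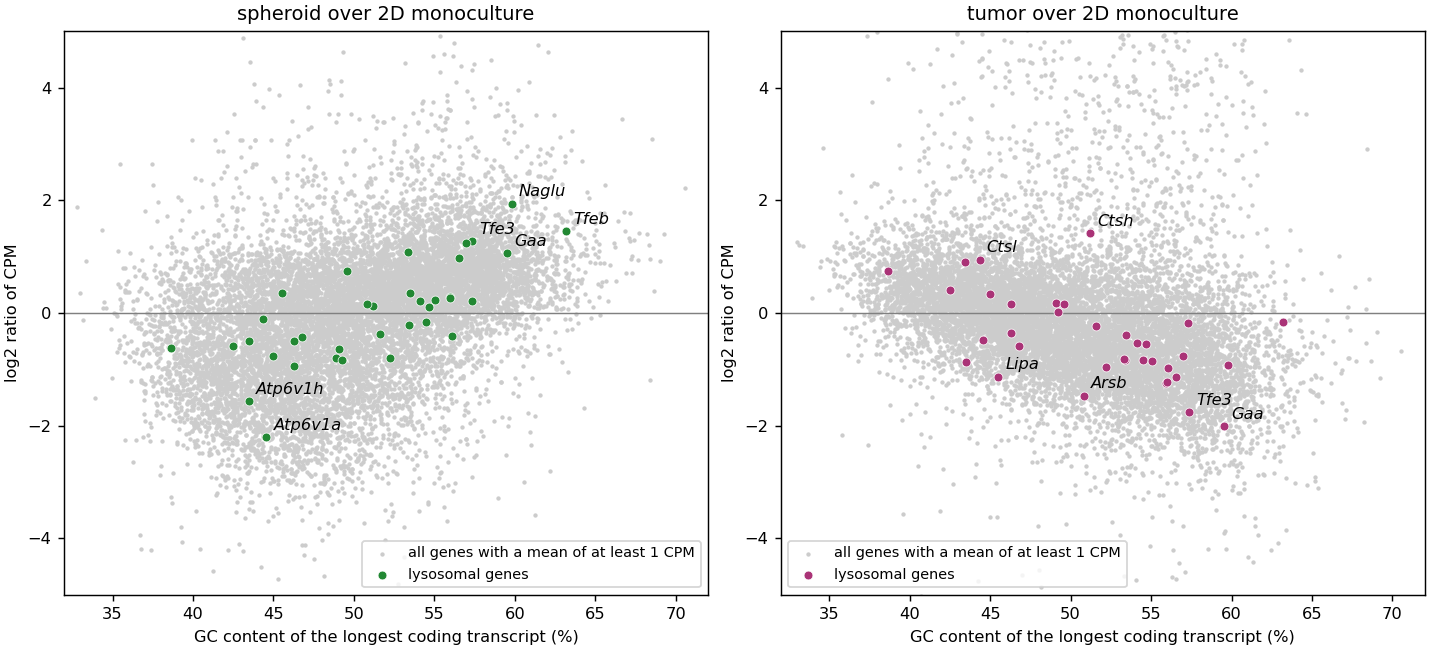
Log2 ratio of CPM to the monoculture (vertical) against GC content of the longest coding transcript in percent (horizontal), for the spheroid (left) and the tumor (right), with all genes of a mean of at least 1 CPM in grey and the lysosomal genes in colour. The vertical axis is limited, so Ctsk in the tumor at 7.24 and some grey points lie outside it, and the lysosomal genes slope upward in the spheroid (Spearman 0.737) and downward in the tumor (-0.570).

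The co-culture was compared with the monoculture, with which the spheroid comparison above shares its reference library, to see what fibroblasts in a flat culture went with. None of the 38 genes was over 2-fold higher in the co-culture, against 8.31% of all genes. Over 2-fold lower were 5, namely Ctsb, Ctsh, Atp6v1a, Atp6v1h and Atp6v0d2, or 4 of the 36 averaging at least 1 CPM, against 12.7% of all genes. The share of lower genes was close to the background, and the median log2 ratio was -0.03 for the 38 genes and 0.01 for all genes.

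Ctsb was at 1369 CPM in monoculture, 593 in co-culture, 770 in the spheroid and 1379 in the tumor. The monoculture and the tumor were thus nearly level and the cultures with fibroblasts lower, with a co-culture-to-monoculture log2 ratio of -1.21 (-1.22 to -1.20). Ctsh, a cathepsin with aminopeptidase activity, was at 41.3, 19.2, 45.1 and 110 CPM, and gave -1.11 on that scale. Cd68, a lysosomal membrane protein counted here among the myeloid markers and named after its values were seen, was likewise low in the co-culture, at 3.69 CPM against 27.5 CPM in the monoculture and 22.5 CPM in the spheroid. Atp6v1a and Atp6v1h gave co-culture-to-monoculture log2 ratios of -1.07 and -1.06, while Atp6v0d2 (2 against 7 reads) gave an interval that held 0. After correction for GC content and length, Ctsb, Ctsh and Atp6v1h remained over 2-fold lower. Fibroblast markers were higher in this library, as given above, and their part in these ratios was not tested.

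**Figure D4:**
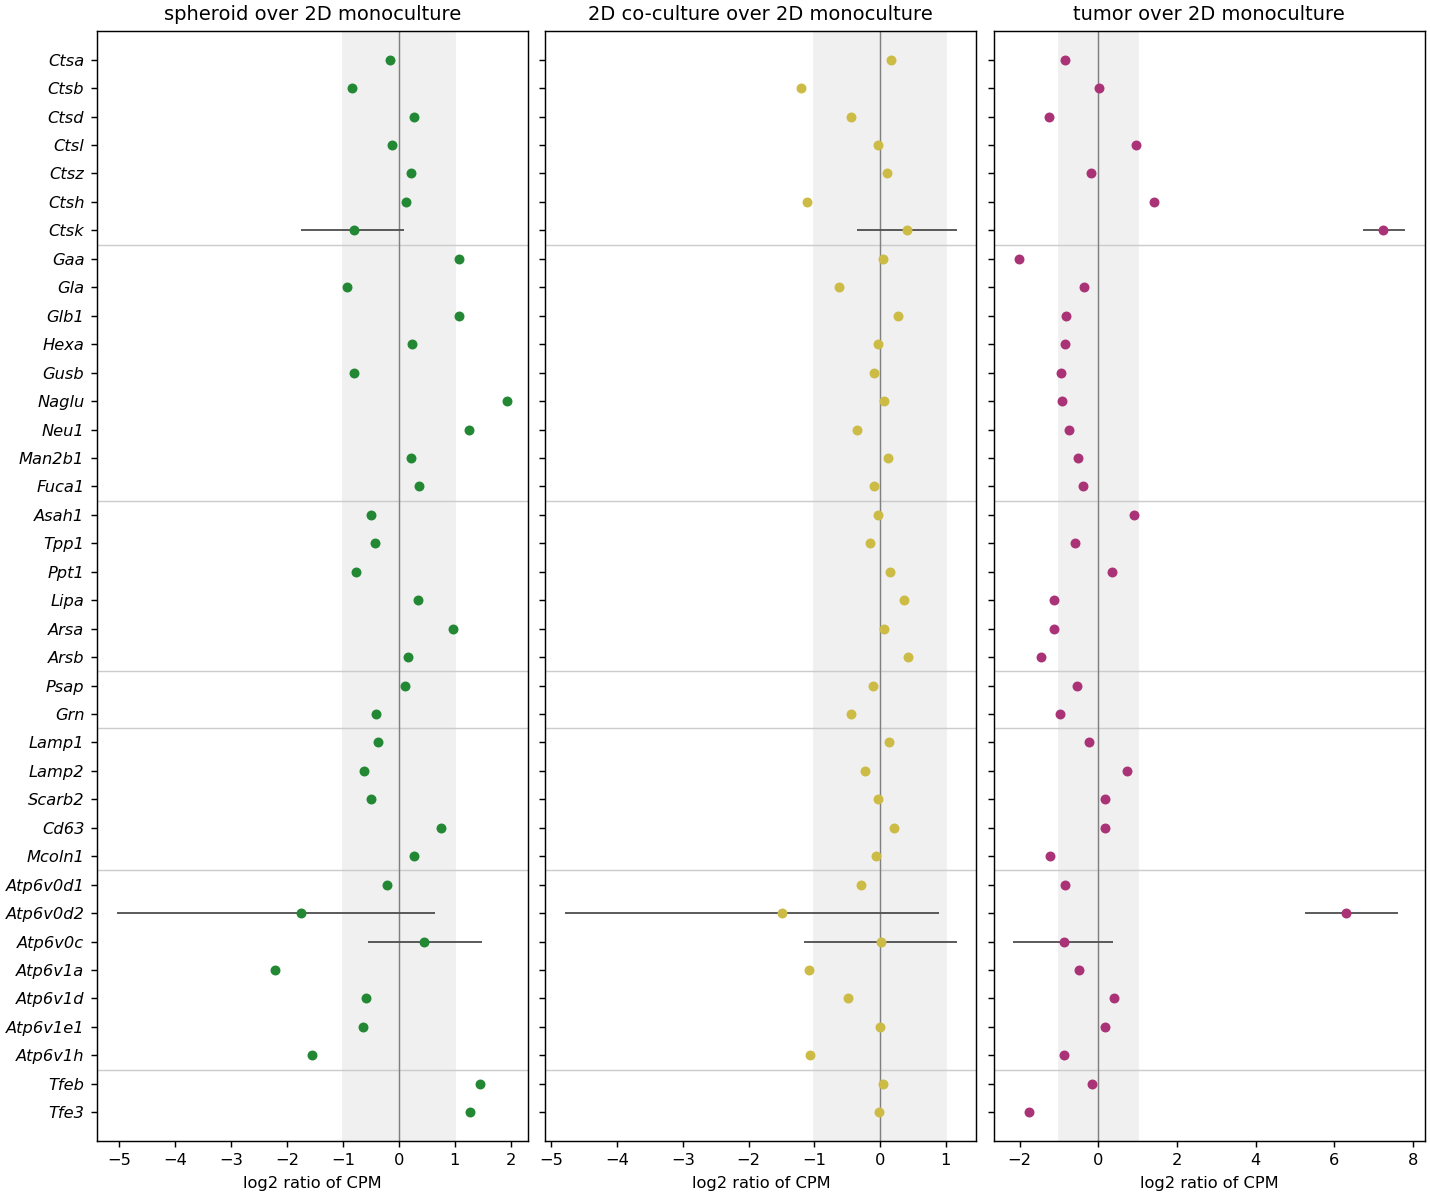
Log2 ratios of CPM to the monoculture for the 38 lysosomal genes in the spheroid (left), the co-culture (middle) and the tumor (right), with lines for the 95% counting interval, often narrower than the point, and the range within 2-fold shaded. All 3 panels share the monoculture library and have horizontal axes of their own, and Ctsk (7.24) and Atp6v0d2 (6.30) stand apart in the tumor.

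The spheroid was also set against the co-culture, since both were grown with fibroblasts. The fibroblast markers differed too, with a summed 679 CPM in the co-culture against 36.5 CPM in the spheroid, and their part in these ratios was not tested. Over 2-fold higher in the spheroid were 6 genes (Naglu, Neu1, Tfeb, Tfe3, Ctsh and Gaa) against 12.4% of all genes, and 2 were lower (Atp6v1a and Ctsk) against 13.1%. The spheroid-to-co-culture log2 ratios were 1.88 for Naglu, 1.60 for Neu1, 1.42 for Tfeb, 1.29 for Tfe3, 1.23 for Ctsh, 1.02 for Gaa and -1.13 for Atp6v1a. The ratio of Ctsk, -1.21 (-2.14 to -0.32), rests on 17 reads against 33. Naglu, Neu1 and Ctsh remained over 2-fold higher and Ctsk over 2-fold lower after correction for GC content and length. The share of higher genes was a little above the background and that of lower genes under it.

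The tumor was compared with the monoculture to set B16F10 tumors in mice against the cultured cells. Of the 38 genes, 3 were over 2-fold higher in the tumor (Ctsk, Atp6v0d2 and Ctsh) against 16.5% of all genes. Over 2-fold lower were 7 (Gaa, Tfe3, Arsb, Ctsd, Mcoln1, Arsa and Lipa) against 20.3%, both shares under the background. Of the 36 genes averaging at least 1 CPM, 2 were over 2-fold higher and 7 lower. The median log2 ratio was -0.54 for the 38 genes and -0.15 for all genes. Below the monoculture were 26 of the 38, beside 7050 of 12728 genes.

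Ctsk, the collagen-degrading cathepsin of osteoclasts (chr3:95499210-95509387), had 31 reads in the monoculture, 33 in the co-culture, 17 in the spheroid and 5351 in the tumor, which made 0.218, 0.288, 0.125 and 33.0 CPM. Its tumor-to-monoculture log2 ratio was 7.24 (6.74 to 7.80), or 151-fold. Atp6v0d2 came to 0.0491 CPM in monoculture, 0.0175 in co-culture, 0.0147 in the spheroid and 3.88 in the tumor, a tumor-to-monoculture log2 ratio of 6.30 (5.25 to 7.62). In the cultures both genes were near the level of a few reads.

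The genes whose profile over the 4 libraries was most like that of Ctsk, by distance of centred log2 CPM among 9572 genes averaging at least 10 CPM, were Plin4, Casq1, Postn, Gbp6 and Folr2, at distances of 0.174 to 0.905. They were chosen for this likeness, so their own levels are no further result, and like Ctsk they reached that mean through the tumor library. Of the 5 osteoclast-type markers, 4 were over 2-fold higher in the tumor than in monoculture, beside 16.5% of genes averaging at least 1 CPM. Only Acp5 of the 5 reached that mean. The 5 summed to 19.9 CPM in the tumor, of which Acp5 made 18.5 CPM, against at most 0.477 CPM in the cultures. In the tumor Calcr, Ocstamp and Dcstamp had only 8, 41 and 159 reads. Oscar, which was not higher, had 8 reads in the tumor and 8 in the monoculture. Calcr was at 0 reads in the 3 cultures and Ocstamp in the monoculture and the co-culture. Myeloid, fibroblast and muscle markers were higher in sum in the same library, and the part of such cells in the tumor levels of Ctsk, Atp6v0d2 and Ctsh was not tested.

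Ctsh, Ctsl, Asah1 and Lamp2 were highest in the tumor. Ctsl, a cysteine endopeptidase, was at 199 CPM in monoculture, 194 in co-culture, 184 in the spheroid and 383 in the tumor, a tumor-to-monoculture log2 ratio of 0.95. Asah1, the acid ceramidase, was at 90.3, 87.9, 63.6 and 169 CPM, and Lamp2, a membrane protein needed for autophagy, at 281, 239, 182 and 469 CPM. Ppt1, which removes palmitate from proteins, was at 53.9, 59.9, 31.7 and 68.2 CPM. Asah1, Lamp2 and Ppt1 were lowest in the spheroid, and for Ctsl the cultures lay close together. The log2 ratio of Ctsh from tumor to monoculture was 1.41.

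The genes lower in the tumor were mostly highest in the spheroid. Ctsd was at 2731 CPM in monoculture, 2018 in co-culture, 3309 in the spheroid and 1148 in the tumor. Lipa, the lysosomal acid lipase that frees cholesterol from its esters, was at 229, 294, 292 and 105 CPM, and Arsb, the sulfatase that acts on dermatan sulfate, at 80.4, 108, 89.9 and 29.1 CPM. The calcium channel gene Mcoln1 was at 38.6, 37.0, 46.6 and 16.4 CPM. In each of these genes the tumor was the lowest library. Their tumor-to-monoculture log2 ratios were -1.25 for Ctsd, -1.13 for Lipa, -1.47 for Arsb and -1.23 for Mcoln1, beside -2.01 for Gaa, -1.76 for Tfe3 and -1.13 for Arsa.

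GC content ran the other way in the tumor, with a Spearman correlation of -0.387 with the log2 ratio to the monoculture over 12289 genes and -0.570 over 36 lysosomal genes. After correction for GC content and length, 1 of the 7 lower genes, Lipa (-1.24), was still over 2-fold lower, and Gaa came to -0.64, Tfe3 to -0.68, Ctsd to -0.54 and Arsa to -0.04. Of the higher genes, Ctsk (7.18) and Ctsh (1.32) remained, and Ctsl (1.25) joined them. Atp6v1h (-1.36) passed 2-fold lower, as it was after the correction in the spheroid and the co-culture against the monoculture. The correction could not be made for Atp6v0d2, which was under a mean of 1 CPM.

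Of the 5 comparisons, spheroid against tumor had the most lysosomal genes over 2-fold apart. It shares a library with each of those above, and the study used it to judge the spheroid as a tumor model. Over 2-fold higher in the spheroid were 13 of the 38 genes, against 28.4% of all genes, and 8 were lower, against 29.2%. The share was above the background for the higher genes and under it for the lower ones. Of the 36 genes averaging at least 1 CPM, 12 were over 2-fold higher and 7 lower. The higher genes were Gaa, Tfe3, Naglu, Arsa, Neu1, Glb1, Tfeb, Arsb, Ctsd, Mcoln1, Lipa, Atp6v0c and Hexa, and the lower ones Ctsk, Atp6v0d2, Atp6v1a, Asah1, Lamp2, Ctsh, Ppt1 and Ctsl. The median spheroid-to-tumor log2 ratio was 0.58 for the 38 genes and 0.08 for all genes.

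The spheroid-to-tumor log2 ratios reached 3.08 (3.06 to 3.10) for Gaa, 3.04 for Tfe3 and 2.87 for Naglu, followed by 2.10 for Arsa and 2.01 for Neu1. At the other end, besides Ctsk (-8.04), they were -1.72 for Atp6v1a, -1.41 for Asah1 and -1.37 for Lamp2. The ratio of Atp6v0c, 1.32 (0.17 to 2.57), rests on 21 reads against 10. GC content again went with the ratio, with a Spearman correlation of 0.540 over 12395 genes and 0.796 over 36 lysosomal genes. After correction for GC content and length, 6 of the 13 higher genes kept a 2-fold difference, among them Gaa (1.10), Tfe3 (1.42) and Naglu (1.25), while Tfeb came to -0.0048. Of the 8 lower genes, 2 kept it, Ctsk (-7.95) and Ctsh (-1.50). Atp6v0c among the higher genes and Atp6v0d2 among the lower ones had no corrected value.

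Further lysosomal genes outside the 38 were counted from lists of other hydrolases, membrane and sorting proteins, V-ATPase subunits, Rag, Ragulator and folliculin genes and the 2 remaining MiT/TFE genes, 81 in all with a mean of at least 1 CPM. Of these, 11 were over 2-fold higher and 17 lower in the spheroid than in the monoculture, shares near or under the 16.4% and 21.6% of all genes. The corresponding counts were 1 and 7 for the co-culture (8.31% and 12.7% of all genes) and 9 and 18 for the tumor (16.5% and 20.3% of all genes). Of the 27 other hydrolases, 8 were over 2-fold higher and 3 lower in the spheroid, with a median log2 ratio of 0.13 beside 0.10 for all genes. After correction for GC content and length, 5 of these hydrolases were over 2-fold higher and 2 lower, beside 1640 and 1701 of 12246 genes. Among their highest spheroid-to-monoculture log2 ratios were those of Ctss and Idua. Idua, the α-L-iduronidase that acts on heparan and dermatan sulfate, was at 20.2 CPM in the monoculture and 77.6 CPM in the spheroid (1.94). The ratio of Ctss, 3.07 (1.57 to 5.03), rests on 32 reads against 4. Ctss, like Tfec, averaged at least 1 CPM only through the tumor library. The lowest were Igf2r, the receptor that carries mannose 6-phosphate tagged hydrolases to the lysosome, at 239 CPM in the monoculture and 37.97 CPM in the spheroid (-2.65), and Tfec and Mitf as given above.

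In the tumor, the highest of these 81 genes were known from leukocytes and osteoclasts: Ctss at 239 CPM against 4 reads in the monoculture, Laptm5 at 58.6 CPM against 0.316 CPM and Acp5 at 18.5 CPM against 0.154 CPM. Ctss, Laptm5 and Acp5 averaged at least 1 CPM only through the tumor library, so their high tumor ratios are no further result. The lowest tumor-to-monoculture log2 ratios were those of Hgsnat (-2.51), an acetyltransferase of heparan sulfate breakdown, Abca2 (-2.34) and Vps18 (-1.74). The Rag and Ragulator proteins tether the growth kinase mTORC1 to the lysosome. Across the 12 Rag, Ragulator and folliculin genes, none was over 2-fold apart between tumor and monoculture, beside 16.5% higher and 20.3% lower of all genes. Over 2-fold, 1 was higher and 3 were lower in the spheroid than in monoculture, beside 16.4% and 21.6% of all genes. After correction for GC content and length, none of the 12 was over 2-fold apart in the spheroid, beside 1640 higher and 1701 lower of 12246 genes.

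Some levels may include reads of other genes. In the GENCODE annotation, 34.4% of the exon bases of Ctsd are overlapped by Gm49369, 39.9% of those of Arsb by Gm26527 and Gm47210, 26.8% of those of Ctsl by Gm47123 and Gm49230, and 18.8% of those of Arsa by C230037L18Rik. For Cd63, 20.2% of the 100-base words recur in the pseudogene Cd63-ps. How the counting treated such reads was not given in the sources used here.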

How the data were processed

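Poly(A) RNA of 4 libraries was sequenced with paired reads. The authors deposited these as read counts by gene symbol in 1 table, whole numbers without normalization. The submitters' processing notes name Trimmomatic, STAR, featureCounts and the build mm10, with no versions. No source used here gives the annotation or the strand setting.

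The lysosomal genes, the lists and the comparisons were chosen with earlier results of these data known. Counts were scaled to CPM with TMM factors of edgeR 4.0.16 in R 4.3.3, which were 0.984 for the 2D monoculture, 0.963 for the 2D co-culture, 0.908 for the spheroid and 1.16 for the tumor. Log2 ratios were taken with nothing added. For intervals, the reads of a gene in a pair of libraries were treated as binomial (Clopper-Pearson). Background shares cover genes averaging at least 1 CPM over the libraries, 12728 in all, less those without a read in either library of a pair. The steps were tested on simulated data.

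The methods of the study name NOISeq and GFold. Neither method was used, and no test between conditions was made. GC content and length come from the longest coding transcript in the GENCODE annotation of GRCm38, for 97.9% of these genes, and the correction removes the median log2 ratio in 10 classes of GC content by 10 of length. Genes named with a level in every library are those over 2-fold apart in any of 5 comparisons (23 of 38), the V-ATPase genes, Tfeb, Tfe3 and the 5 of highest mean CPM. For the wider lists, the 3 highest and 3 lowest ratios to the 2D monoculture in the spheroid and the tumor are named, with Mitf and Tfec, except for 1 gene that is not reported here. Alternatives were DESeq2 1.42.0 size factors, total counts, upper quartiles, 1 CPM added, other filters and the correction. Scripts ran in Python 3.11.15 with scipy 1.17.1, pandas 2.3.3, numpy 2.4.6 and matplotlib 3.10.9.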

Additional observations from a re-analysis of the deposited data

How the results depend on the processing

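With DESeq2 size factors, all 53 ratios over 2-fold kept their direction and stayed over 2-fold, and with total counts or upper quartiles 45 of 53 did. With GC content and length corrected, 21 of 48 did, 26 fell under 2-fold and 1 turned, Tfeb in the spheroid against the tumor (1.61 to -0.0048). TMM factors of the 3 culture libraries, chosen after seeing the data, left all 22 ratios they touch over 2-fold.

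Medians near 0 changed sign. For spheroid against 2D monoculture the median log2 ratio of -0.01 became 0.0316 with DESeq2 size factors, 0.11 with upper quartiles, 0.0026 with 1 CPM added and 0.10 over genes averaging at least 10 CPM. For 2D co-culture against 2D monoculture, -0.03 became 0.0822 with upper quartiles. For spheroid against 2D co-culture, 0.05 became -0.0307 with total counts and -0.0375 with the correction.

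With GC content and length corrected, the counts over 2-fold higher and lower went from 6 and 3 to 2 and 5 for spheroid against 2D monoculture, from 13 and 8 to 6 and 2 for spheroid against tumor, and from 6 and 2 to 3 and 1 for spheroid against 2D co-culture. Of all genes, 1640 and 1701 of 12246, 2312 and 2839 of 12395 and 1229 and 1276 of 12368 were then over 2-fold higher and lower in these 3 comparisons. The lower counts went from 5 to 3 for 2D co-culture and from 7 to 2 for tumor, each against 2D monoculture, beside 1186 of 12266 and 861 of 12289 genes. Upper quartiles made these 2 and 3, total counts made the tumor's 4, and both made 5 of the 3 genes higher in the tumor. Total counts gave 13 lower genes for spheroid against tumor, and 1 CPM added gave 1 for spheroid against 2D co-culture. Scaling moved the median of all genes by -0.12 (total counts) and 0.12 (upper quartiles) for spheroid against 2D monoculture, 0.24 and 0.25 for tumor against 2D monoculture and -0.36 and -0.13 for spheroid against tumor. The correction removes any difference that goes with GC content or length, whatever its source, and the cause was not tested.

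No paired analysis was possible because only 1 library represents a condition. Genes of few reads (Atp6v0d2, Atp6v0c, and Ctsk in the cultures) were limited by their counts and by the lack of replicates, the others by the lack of replicates. Whether sequence shared with Atp6v0c-ps2 had a part in the few reads of Atp6v0c was not tested.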
